A study of Mus musculus with 8 samples.

Results

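*Tshr* encodes the thyrotropin receptor, and the peaks of EBF2 and of H3K27ac listed in it or within 50 kb of either end are described here. *Tshr* (gene ID 22095) is 1 of 21887 protein-coding genes in the gene table and lies on chromosome 12 of GRCm38 from 91400993 to 91540509, a length of 139.5 kb. Of 5650 peaks in the 8 lists, 6 were found there. The gene was chosen by its EBF2 peaks, which were present in both Cre lists and in neither Vec list, so the EBF2 comparison is given as a description and was not tested.

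The thyrotropin receptor is a G protein-coupled receptor with a large extracellular domain that binds thyrotropin, the pituitary hormone that drives the thyroid. It signals mainly through Gs, adenylyl cyclase and cyclic AMP, the same pathway that norepinephrine uses in brown adipocytes through the β-adrenergic receptors. The receptor is best known in thyroid follicular cells and is also made in adipocytes. EBF2 is a transcription factor of the brown adipocyte lineage, and H3K27ac is a histone mark found at active promoters and enhancers.

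Cut & Tag, in which an antibody directs a transposase to its target in permeabilized cells, was run on differentiated mouse brown preadipocytes (BAC) of *Cars2* flox/flox mice. The cells came from the interscapular brown fat of newborns and had been made immortal by the large T antigen of SV40. Vec cells (BAC-V, labelled WT) carried the empty retrovirus and kept the floxed gene, and Cre cells (BAC-Cre, labelled CarS2-KO) carried Cre recombinase, which removes *Cars2*, the mitochondrial cysteinyl-tRNA synthetase gene. Both were selected as infected populations with hygromycin and differentiated in the same medium, which held 20 nM insulin and 1 nM T3 throughout and 0.5 mM IBMX during induction. There were 2 libraries for each antibody in each cell type, 8 in all, and the labels do not say whether they came from separate cultures. The study's methods speak of distinct samples and repeated culture experiments in general, without naming these libraries, so the spread between them may be technical. The number of reads is not known. *Cars2* had no listed peak within 50 kb in any of the 8 lists, so the lists do not check the deletion. None of the 18 brown adipocyte markers looked up, *Ucp1* and *Adipoq* among them, had a listed peak within 50 kb either, nor had any of 9 thyroid follicular, 8 skeletal muscle, 7 macrophage or 6 endothelial markers, so the labelled cell type could not be checked from the lists. A listed peak within 50 kb in any of the 8 lists was found for 12.6% of all protein-coding genes. From Cut & Tag of brown adipocytes, the study reports binding of EBF2 at the *Cars2* promoter and at *Ucp1*. Neither gene has a listed peak here, so the lists can lack sites that the study describes. An empty list, as for EBF2 in Vec at *Tshr*, therefore does not show that EBF2 was absent. In EBF2 Cre replicate 1, the peaks are named after the adiponectin-Cre knockout mouse in place of the cell line. Its label was followed, and each EBF2 value is given for both Cre libraries.

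The EBF2 lists of Vec held no peak in *Tshr* or within 50 kb of it, in replicate 1 or in replicate 2. EBF2 Cre replicate 1 had 1 peak of 9.35 kb (chr12:91445691-91455040), with a fold of 2.70 over the background of the caller and a −log10 q-value of 4.23. EBF2 Cre replicate 2 had 1 peak of 7.12 kb (chr12:91445701-91452821), with a fold of 2.66 and a −log10 q-value of 4.28. The 2 peaks began 10 bp apart and ended 2219 bp apart, and the second lay wholly within the first. Both lay inside the gene body, starting 44.7 kb from its lower-coordinate end and ending 85.5 kb and 87.7 kb before its upper end. Exon and intron boundaries were not used here, and neither gene end was covered. The covered length in *Tshr* and 50 kb on either side was 0 kb in both Vec libraries and 8.24 ± 1.58 kb (SD, n = 2) in Cre, so that the groups did not overlap. By the same rule, 3.8% of the 816 merged EBF2 regions and 0.142% of the protein-coding genes showed EBF2 in Cre replicates 1 and 2 and not in Vec. In the opposite direction, Vec replicates 1 and 2 and not Cre, the shares were 0.490% and 0.119%. Nothing is read from these shares, since the rule chose the gene.

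**Figure D1:**
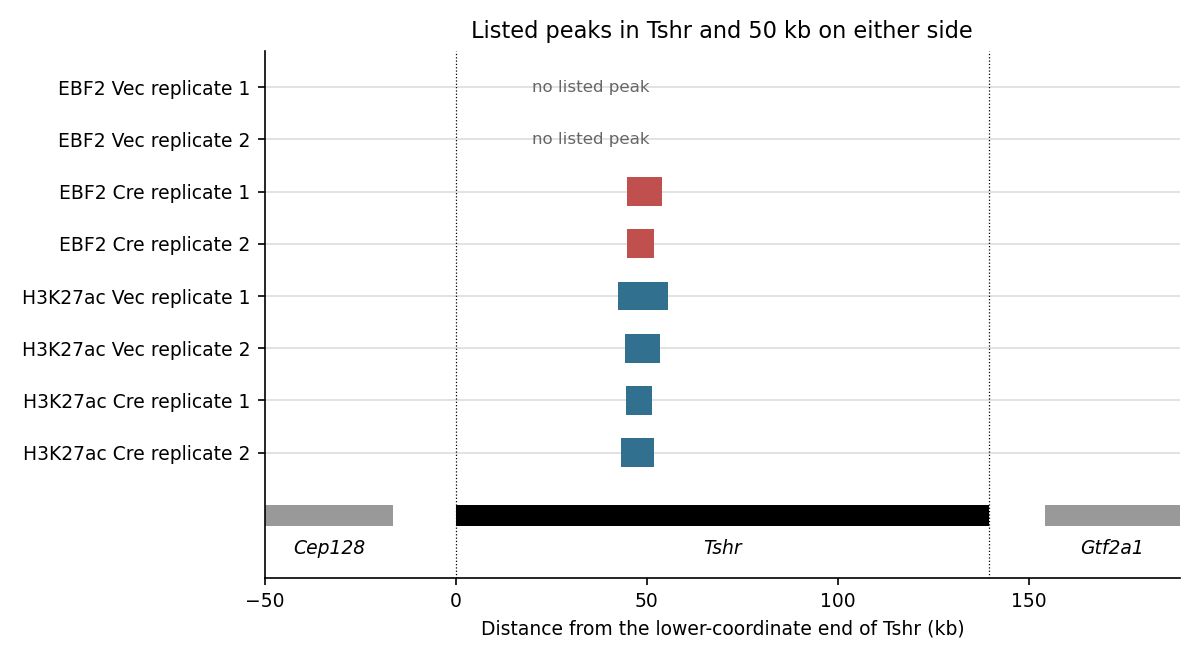
Peaks listed in *Tshr* and 50 kb on either side, by distance from the lower-coordinate end of the gene in kb, with 1 row for each of the 8 libraries (red: EBF2, blue: H3K27ac). The black bar is the gene body and grey bars are the neighbouring genes. The 6 peaks lie at the same place, about 44.7 kb into the gene, and the EBF2 rows of Vec are empty.

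H3K27ac was listed at the same place in all 4 libraries, in Vec as well as in Cre. The peak of Vec replicate 1 was 13.2 kb wide (chr12:91443321-91456524, fold 2.27, −log10 q-value 5.59) and that of Vec replicate 2 was 9.04 kb wide (chr12:91445368-91454411, fold 2.22, −log10 q-value 2.53). In Cre replicate 1 the peak was 6.69 kb wide (chr12:91445561-91452251, fold 1.91, −log10 q-value 1.33), and in Cre replicate 2 it was 8.73 kb wide (chr12:91444211-91452943, fold 2.26, −log10 q-value 2.80). The weakest of these was thus Cre replicate 1, whose list goes down to a −log10 q-value of 1.07. An H3K27ac peak within 50 kb in all 4 lists was found for 6.53% of the protein-coding genes. No library held a further H3K27ac peak in the window.

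The H3K27ac peak was narrower in Cre than in Vec, with no overlap between the groups. The covered length was 11.1 ± 2.94 kb (SD, n = 2) in Vec and 7.71 ± 1.44 kb (SD, n = 2) in Cre, and the difference of the log2 lengths, Cre minus Vec, was -0.52 with an SE of 0.33. The two-sided p-value of an exact permutation test was 0.33, the smallest that 4 libraries in 2 equal groups allow. The groups did not overlap by a narrow margin, 9.04 kb in the lower Vec library and 8.73 kb in the higher Cre library. Of the 307 H3K27ac regions present in all 4 lists, 25.1% were shorter in Cre than in Vec without overlap and 9.45% were longer without overlap, and 30 of the 307 had a lower ratio than *Tshr*. Among the 32 such regions whose widest peak was between 5 and 20 kb, 8 had a lower ratio. Vec replicate 1, with the widest peak, also had the highest background coverage at *Tshr*, about 20.1 against 9.46 to 10.1 in the other 3 H3K27ac libraries as estimated from the mean values of each peak, and the part of this in the width was not tested. Without that library the log2 ratio was -0.24, and without each of the others in turn it ranged from -0.79 to -0.32. With peaks of 10 kb or less alone, which leaves out the peak of Vec replicate 1, the covered lengths were 0 and 9044 bp in Vec and 6691 and 8733 bp in Cre, and the higher mean was then that of Cre. Only the listed length was compared, and whether the signal itself was lower in Cre was not tested. A change in signal per cell and one in the number of cells with the mark cannot be told apart in these bulk libraries.

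**Figure D2:**
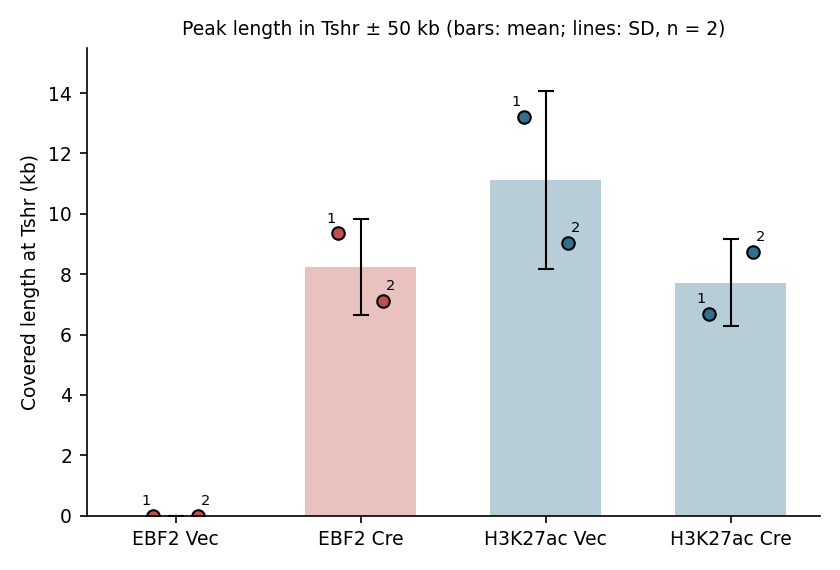
Length covered by listed peaks in *Tshr* and 50 kb on either side, in kb, for each of the 8 libraries (points, numbered by replicate), with the mean (bars) and SD (lines, n = 2) of each group. EBF2 covered 0 kb in both Vec libraries and 9.35 and 7.12 kb in Cre, and H3K27ac covered more in Vec than in Cre, without overlap.

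A stretch of 6.55 kb, chr12:91445701-91452251, was shared by all 6 peaks. It starts 44.7 kb into the gene and its middle lies at 34.4% of the gene's length. The 6 starts were spread over 2380 bp and the 6 ends over 4273 bp. EBF2 Cre replicate 2 had 100% of its peak inside both H3K27ac peaks of Vec, and EBF2 Cre replicate 1 had 100% inside Vec replicate 1 and 93.3% inside Vec replicate 2. EBF2 Cre replicate 1 had 70.2% of its peak inside H3K27ac Cre replicate 1 and 77.6% inside H3K27ac Cre replicate 2. For EBF2 Cre replicate 2 these shares were 92.0% and 100%. The Jaccard index, the length that both peaks of a pair share over the length that either covers, ranged from 0.539 to 0.902 where an EBF2 peak was set against an H3K27ac peak (8 pairs). It was 0.762 for the EBF2 pair and ranged from 0.507 to 0.766 over the 6 H3K27ac pairs, so the values between antibodies overlapped those within them. A place shared by both antibodies is common in these lists. Of the 1429 protein-coding genes with H3K27ac within 50 kb in all 4 lists, 1019 also had EBF2 in all 4, and 48 had no EBF2 peak. This background counts nearness to a gene and not the overlap of peaks. The EBF2 summits were at position 91450191 in Cre replicate 1 and 91451758 in Cre replicate 2, 1.57 kb apart, and both lay inside the shared stretch.

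**Figure D3:**
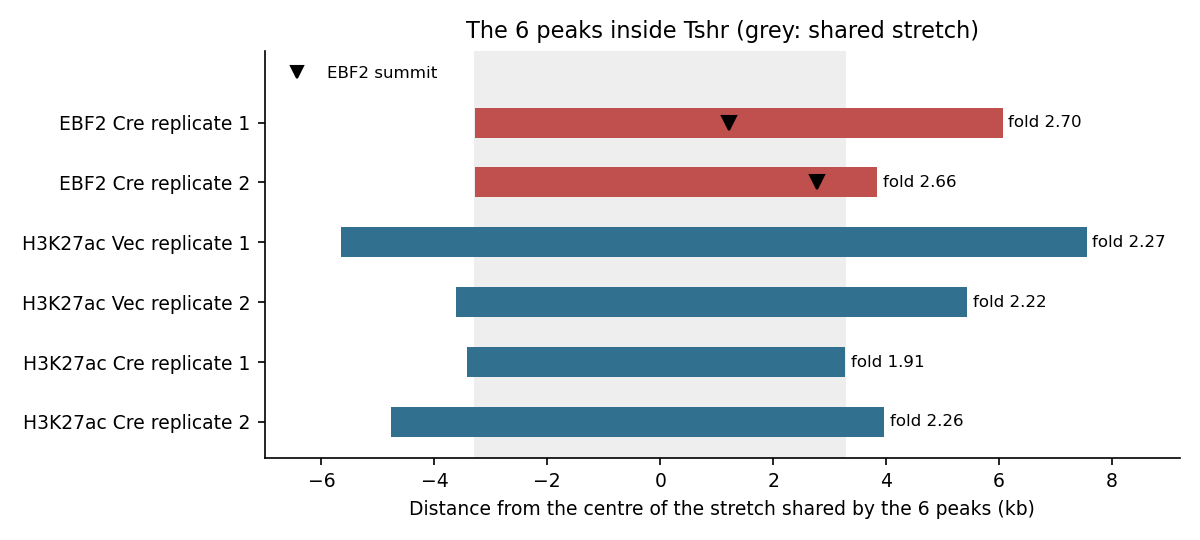
The 6 peaks inside *Tshr* by distance in kb from the centre of the stretch they share (grey, 6.55 kb), with the fold of each peak over the background of its own list, and the EBF2 summits as triangles. The starts of the EBF2 peaks are 10 bp apart and their summits 1.57 kb apart, and the H3K27ac peak of Vec replicate 1 is the widest.

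The lists hold no read counts. However, the fold and p-value of an EBF2 peak together give the whole-number coverage at its summit and the background that the caller set against it, and this worked for 100% of the EBF2 peaks used. At *Tshr* the summit coverage was 24 over a background of 8.26 in Cre replicate 1 and 25 over 8.76 in Cre replicate 2. Both backgrounds were the floor of their list, the value found for 84.6% of the peaks solved in each Cre list. In Vec replicate 1 the floor was 7.38 and the lowest listed peak at that floor had a coverage of 16, and in Vec replicate 2 these were 1.39 and 6. Vec replicate 2 thus had the lowest background of the 4 EBF2 libraries.

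On the assumption that signal scales with background, the Cre summits are given at the scale of each Vec list, as a description and not as a test. Scaled to the background of Vec replicate 1, the Cre summits came to a coverage of 21.4 (95% exact Poisson interval 13.7 to 31.9) and 21.0 (13.6 to 31.1). The lowest listed peak at that background had a coverage of 16. Scaled to Vec replicate 2, they came to 4.03 (2.58 to 5.99) and 3.96 (2.56 to 5.84), and its lowest listed peak had a coverage of 6. At the folds of the Cre peaks, the coverage would be 21.6 and 21.3 in Vec replicate 1 and 5.44 and 5.36 in Vec replicate 2. The gene was chosen by these Cre peaks, so nothing is read from the scaled values about the empty Vec lists. Whether depth had a part in the absence of the peak from Vec was not tested. The intervals cover counting error only, they treat reads as independent although duplicates may be present, and the summit is the highest point of each peak.

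**Figure D4:**
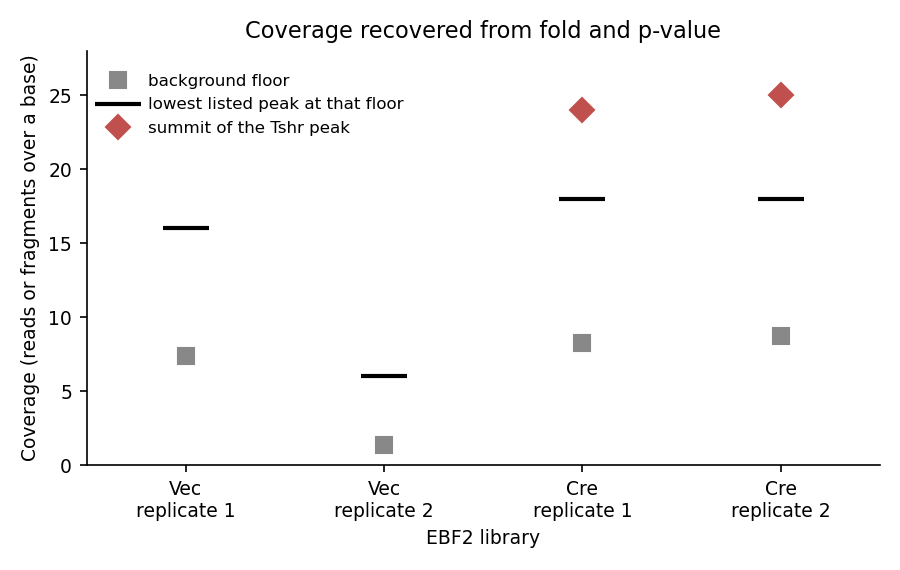
Coverage in the 4 EBF2 libraries, in reads or fragments over a base, solved from the fold and the p-value: the background floor of the list (squares), the lowest listed peak at that floor (lines) and the summit of the *Tshr* peak (diamonds, Cre only). The Cre summits, 24 and 25, lie above the lowest listed peak of 18 in both Cre lists, and the floor of Vec replicate 2 is 1.39.

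The rank of the *Tshr* peak within its own list differed between libraries. Among all peaks of an H3K27ac list, 71.8% and 58.5% had a lower fold in Vec replicates 1 and 2, and 33.1% and 72.0% in Cre replicates 1 and 2. By score these shares were 62.6% and 53.4% in Vec, and 18.7% and 49.0% in Cre. In EBF2 Cre replicate 1 it ranked 267 of 660 by fold, above 92.9% of the 368 peaks of 10 kb or less, and in EBF2 Cre replicate 2 it ranked 253 of 676, above 94.9% of the 355 such peaks. In the H3K27ac lists the peak had a higher fold than 97.4% and 92.2% of the peaks of 10 kb or less in Vec replicates 1 and 2, although it was itself wider than that in replicate 1. The same share was 59.2% in Cre replicate 1 and 95.6% in Cre replicate 2. By score, the corresponding shares were 87.2% and 91.3% in EBF2 Cre replicates 1 and 2, 81.0% and 81.9% in H3K27ac Vec, and 32.7% and 59.4% in H3K27ac Cre. The peak thus ranked lowest in H3K27ac Cre replicate 1 by both measures, and its rank was lower by score than by fold in every library that held it.

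The EBF2 region at *Tshr* was 1 of the 31 regions listed in both Cre libraries and neither Vec library. This number was 101 without Vec replicate 1, 34 without Vec replicate 2, 222 without Cre replicate 1 and 223 without Cre replicate 2, and 20 with the median score as a minimum, so what follows holds for the 4 lists together. The 31 regions were between 2450 and 341135 bp wide with a median of 12541 bp, and 11 were narrower than that of *Tshr*. Only 7 of the 31 overlapped a protein-coding gene, and 3 lay wholly inside one, in *Tshr*, *Slc44a1* (a choline transporter) and *Sfmbt2* (a Polycomb-group protein). All 3 overlapped an H3K27ac peak by at least 1 bp in all 4 lists, as did 12 of the 31, while 8 had no H3K27ac peak. These 8 are neighbouring pieces of 1 stretch of chromosome 6, from 133312144 to 133460556, so the 31 regions are not 31 separate places. At *Slc44a1* the overlap could be small, since H3K27ac Vec replicate 2 covered 1015 bp in or near the gene and the EBF2 region was 122123 bp wide. By fold, 7 of the 31 regions stood above *Tshr* in Cre replicate 1 and 5 in Cre replicate 2. The folds of the 31 ranged from 2.05 to 4.21 in Cre replicate 1 and from 1.82 to 3.69 in Cre replicate 2, with 2.70 and 2.66 at *Tshr*.

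No other listed peak lay near the one inside *Tshr* on chromosome 12. This is not particular to the gene, since the lists are sparse. Each held 22 to 53 peaks on the whole chromosome, and 19125 of the 21887 protein-coding genes had no peak within 50 kb in any list. The usual distance between peaks was not worked out. Below the gene, the nearest other peak was between 3.43 and 3.48 Mb away in all 8 lists. Above it, the nearest peak was at least 10.4 Mb away in every list (H3K27ac Cre replicate 2) and 23.9 Mb away in EBF2 Vec replicate 2. None of the 4 protein-coding genes within 500 kb had a peak inside it or closer than 50 kb to it in any list. These are *Cep128* (a centriole protein) and *Gtf2a1* (a subunit of the general transcription factor TFIIA). Farther away are *Ston2* (an endocytic adaptor) and *Sel1l* (a part of the degradation machinery of the endoplasmic reticulum). *Cep128* and *Gtf2a1* are on the minus strand. By coordinate, the start of *Cep128* lies 16.5 kb below *Tshr*, and the end of *Gtf2a1* lies 14.8 kb above *Tshr*. Within the gene body, the pseudogene *Gm18827* lies 29.8 kb above the shared stretch and the noncoding RNA *Gm40541* lies 82.5 kb above it. *Dio2*, the deiodinase that makes active thyroid hormone in brown fat, lies 662 kb below *Tshr* on the same chromosome and had no listed peak within 50 kb in any of the 8 lists.

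Genes with the pattern of *Tshr* over the 8 lists, a peak within 50 kb in both EBF2 Cre lists and all 4 H3K27ac lists and in neither EBF2 Vec list, made up 0.0868% of the protein-coding genes. They were 19 genes with *Tshr*, at 14 separate places on 9 chromosomes. In contrast, 1019 genes had a peak in all 8 lists, and 48 had H3K27ac in all 4 lists with no EBF2 peak. The count of 19 rests on EBF2 Vec replicate 1: without it 194 genes had the pattern over the other 7 lists, without EBF2 Cre replicate 2 there were 42, and without each of the other 6 there were 19 to 23. With the median score as a minimum 12 genes had it, and with peaks of 10 kb or less 4 had it, and in both cases *Tshr* was no longer among them, since H3K27ac peaks dropped out.

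Likeness to *Tshr* was measured by the mean absolute difference of log2(covered bp + 1) over the 8 lists, where 0 is identity. The nearest gene was *Gm3973*, a predicted gene that is also on chromosome 12 (19490220 to 19526534), at 0.44. *Defb33* (a β-defensin) and its neighbours *Gm15056* and *Gm6040* followed at 0.49, and these 3 share the same peaks on chromosome 8. *Sfmbt2* came next at 0.53, with EBF2 covering 3214 bp in Cre replicate 1 and 7433 bp in Cre replicate 2. Its H3K27ac peaks covered 5218 and 7275 bp in Vec and 10029 and 6498 bp in Cre, so that, unlike at *Tshr*, the Vec and Cre lengths overlapped. The next 5 were *Pramel3* at 0.91, *Vmn1r209* (a vomeronasal receptor) at 0.93, *Ssxb6* at 1.13, *Desi2* at 1.25 and *Sdc2* (a syndecan) at 1.72. Of the 19 genes, 3 held the EBF2 region inside the gene, *Tshr*, *Sfmbt2* and *Slc44a1*.

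**Figure D5:**
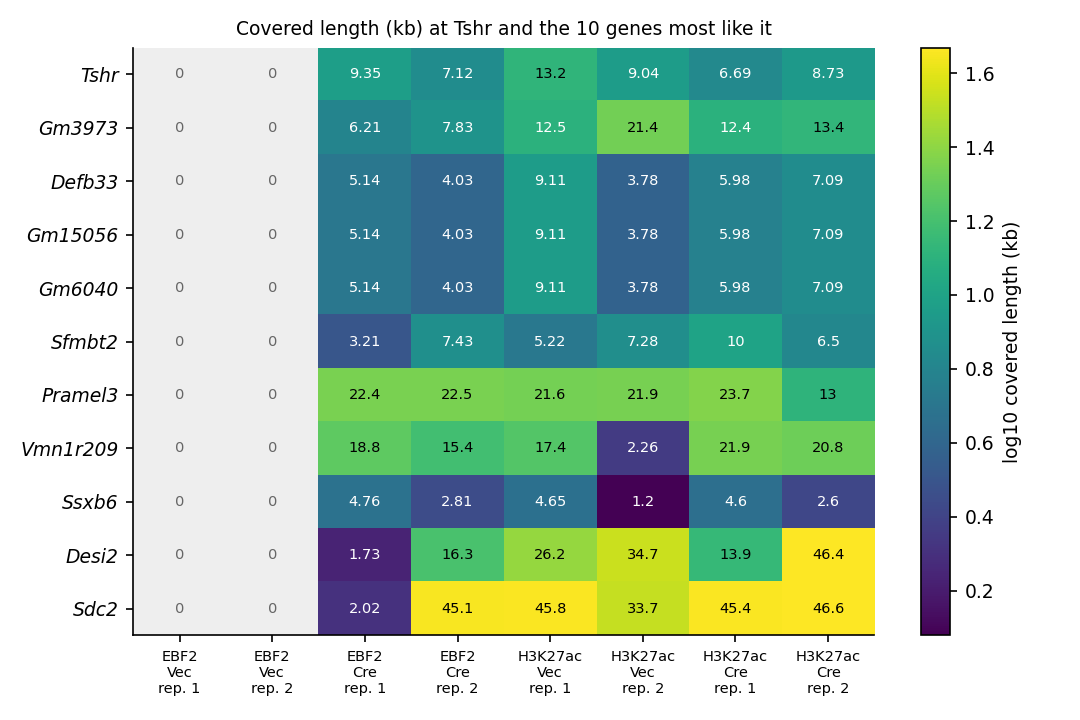
Length covered by listed peaks within 50 kb of *Tshr* and of the 10 genes with the same pattern that are most like it, in kb, in each of the 8 libraries (colour on a log10 scale, grey for 0 kb). *Defb33*, *Gm15056* and *Gm6040* share the same peaks, and the lengths at *Tshr* lie between 6.69 and 13.2 kb wherever a peak was listed.

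The other genes of thyrotropin and thyroid hormone biology were looked up in the same way. Of 78 genes in 5 lists, 7 (8.97%) had a peak within 50 kb in any of the 8 lists, against 12.6% of all protein-coding genes, and 0 had an EBF2 peak, against 7.47%. Among 19 genes of thyrotropin and the thyroid gland, only *Duox1*, an oxidase that supplies hydrogen peroxide, had a peak within 50 kb, in H3K27ac Cre replicate 2 at 27.8 kb from the gene. *Tshb* and *Cga*, the subunits of thyrotropin, had none within 50 kb, and neither did *Tg* or *Slc5a5*.

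Of 20 genes that carry the signal of the receptor, *Crem*, a transcription factor of the cyclic AMP pathway, and *Pde4d*, a phosphodiesterase that breaks cyclic AMP down, had H3K27ac peaks inside the gene, again in Cre replicate 2 alone. The peaks of these 2 genes were between 936 and 1099 bp wide, far narrower than the one in *Tshr*. *Gnas*, which encodes the Gs subunit, and the adenylyl cyclases looked up had none.

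Of 7 related receptors with leucine-rich repeats, *Rxfp1*, the relaxin receptor, had an H3K27ac peak in Cre replicate 2, and *Fshr* and *Lhcgr*, the receptors of the gonadotropins, had no peak. Of 12 receptors that signal through Gs, *Adora2a*, an adenosine receptor, had H3K27ac peaks in both Vec lists, the nearest at 38.7 and 44.2 kb from the gene, and none within 50 kb in Cre. Beyond that window, at 78.8 kb from *Adora2a*, H3K27ac Cre replicate 2 had a peak of 2.02 kb. It lay inside a peak of each Vec list, so the difference rests in part on the window. *Ptger4*, a prostaglandin receptor, had an H3K27ac peak in Cre replicate 2. *Adrb1* and *Adrb3*, which encode β-adrenergic receptors, had none. H3K27ac Cre replicate 2, which had a peak within 50 kb of 6 of these 7 genes, is the longest list, with 902 peaks against 646 to 836 in the other H3K27ac lists.

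The core of the EBF motif, CCCNNGGG, which reads the same on both strands, was searched in the RefSeq promoter windows of GRCm38.p6 (300 bp around a gene start). The 4 windows within 50 kb of *Tshr*, 1 of *Cep128*, 1 of *Gm40541* and 2 of *Gtf2a1*, held 0 matches, and no window of *Tshr* itself was searched. Of the whole set, 13.7% of 32851 windows held at least 1. None of the 6 peaks reaches these windows, and the sequence under the peaks was not analysed here.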

How the data were processed

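The authors deposited 1 peak list per library, called on each library by itself, in the narrow layout of MACS2 for EBF2 and the broad layout for H3K27ac. The submitters' processing notes name bcl2fastq 2.17, Trimmomatic 0.33, HISAT2 2.2.1, MACS2 2.2.7 and mm10. Filters, control library and caller settings are not given in the sources used here. The deposited score is 10 times the −log10 q-value as a whole number, and the fold, a ratio to the local background, and the −log10 values of p and q are also the authors' values (means over the region for H3K27ac). Scores and folds were ranked within a list only.

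Genes were those of RefSeq GRCm38.p6 (21887 protein-coding). Peaks in *Tshr* or within 50 kb were taken. Positions are 1-based. EBF2 regions were peaks of the 4 lists merged at an overlap of at least 1 bp. Coverage k and background b were solved from fold = (k + 1) / (b + 1) and the Poisson chance of exceeding k, for peaks with a −log10 p-value under 60 and a match within 0.001. In the H3K27ac lists this is approximate, since their values are means. H3K27ac lengths in Vec and Cre were set against each other with an exact permutation test (6 arrangements). The gene and the lists of genes were chosen with earlier results of these data known. Named were *Tshr*, its neighbours within 500 kb, list genes with a peak (some items are not reported here), and the 10 genes most like *Tshr* with the same pattern. Region and coverage functions were tested on simulated data. Python 3.11.15, matplotlib 3.10.9, scipy 1.17.1, numpy 2.4.6 and pandas 2.3.3 were used. Alternatives tried were other windows, a score of at least the median of the antibody's lists (29 for EBF2, 27 for H3K27ac), equal numbers of best-scoring peaks (533 and 646), peaks of 10 kb or less, other rules of overlap, leaving out each library, and a replicate block.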

Additional observations from a re-analysis of the deposited data

How the results depend on the processing

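The EBF2 covered length at *Tshr*, 8235.5 bp more in Cre than in Vec, was 7121 to 9350 bp with 1 library left out and 8235.5 bp with the replicate block, and its direction is set by the choice of the gene. For H3K27ac the log2 ratio of -0.52 was -0.79 to -0.24 with 1 library left out, and the replicate block gave the same value (exact sign-flip test, two-sided, p = 0.5, the smallest that 2 pairs allow). Over the 307 shared H3K27ac regions, the deviations of same-numbered libraries had a correlation of 0.04, so the H3K27ac lengths showed no pairing by number. The EBF2 libraries were not examined for pairing. No ratio could be computed with the median score, which removed the peaks of Vec replicate 2 and Cre replicate 1, or with peaks of 10 kb or less, which removed that of Vec replicate 1. In that last case the lengths were 0 and 9044 bp in Vec and 6691 and 8733 bp in Cre, so the mean was then higher in Cre. EBF2 regions listed in Cre replicates 1 and 2 but not in Vec, 31 in all, numbered 20 with the median score and 34 to 223 with 1 library left out (101 without Vec replicate 1, and 222 and 223 without Cre replicates 1 and 2). Genes with the pattern of *Tshr*, 19 in all, numbered 12 with the median score and 4 with peaks of 10 kb or less, under both of which *Tshr* itself lost it through H3K27ac, and 19 to 194 with 1 library left out. The mean share of genes with a peak within 50 kb was 6.19% for EBF2 and 8.69% for H3K27ac. It was 4.77% and 6.38% within 10 kb, 1.24% and 2.80% with peaks of 10 kb or less, and 7.22% for H3K27ac with the median score. Of the 78 thyrotropin and thyroid hormone genes, 3 had a peak within 10 kb (8.89% of all genes did) and 12 within 100 kb (17.1% of all genes). The number of reads is not known, and the EBF2 background was lowest in Vec replicate 2, at 1.39.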

Other observations

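*Tshb*, which encodes the β subunit of thyrotropin, lies on chromosome 3 from 102777398 to 102789082. It had a peak in 1 list once the window was widened to 100 kb, an EBF2 peak of 3.69 kb in Cre replicate 2 that lies 88.3 kb from the gene (102877338 to 102881026). Its fold was 1.95, the lowest that this list holds at its background floor, and it was absent from EBF2 Cre replicate 1. *Tshb* was singled out after its values were seen.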
